A study of Rattus norvegicus with 4 samples.

Results

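The untreated samples of a study of N6-methyladenosine (m6A) in cultured rat hippocampal neurons are described here: which messenger RNAs of these cells carried m6A peaks, how many, and where. The description rests on 2 of the 4 samples of the series. Ctrl_Input is RNA that met no antibody, and Ctrl_IP is RNA pulled down with an antibody to m6A; both are labelled as primary hippocampal neurons with no treatment, and each is 1 library. The cultures had received Ara-C, a drug that stops cell division, on day 7 in vitro. The labels do not say how many animals were pooled or whether both libraries came from 1 culture, so the values describe these libraries and carry no replicate error. The samples exposed to bisphenol A were not analysed here.

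The deposited input table lists 22714 rows of protein-coding genes under 22263 symbols, with a total count of 9837064. An FPKM (fragments per kilobase of transcript, scaled to library size) of at least 1 was taken as expressed, which held for 12541 genes with a median count of 290.7. The deposited peak list holds 8192 peaks in 4050 genes, of which 7686 lay in expressed genes. Each peak has a fold enrichment, the authors' ratio of IP over input, with a median of 5.92 and a range from 2.05 to 488. It also has a score, which is -10 times log10 of its p-value. Scores ran from 3.02, a p of 0.499, to 3227; 2503 peaks (30.6%) had a p above 0.05, and 2595 (31.7%) had a score of at least 100, called strong here. The median peak was 159 bp long, and 256 peaks were longer than 1000 bp, up to 7383 bp. A long peak counts as 1, so the number of peaks does not measure how much of a gene was enriched. The depth of the IP library is not known from these files.

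m6A is the most common internal modification of messenger RNA. A complex around Mettl3 and Mettl14 writes it, mostly within a short motif with GGAC as a frequent core, the demethylases Fto and Alkbh5 can remove it, and proteins with a YTH domain read it and affect splicing, transport, translation and decay. In other mammalian data the mark is known to be frequent in long internal exons and around stop codons, and in neurons it is known for roles in axon growth, synaptic function and memory.

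Sequences at the starts of genes are shown first, because peaks that began exactly at the annotated gene start were a frequent class here. Among 239 genes with a strong peak of that kind, a proper symbol and an entry in the RefSeq promoter table (build GRCr8), 58 held the letters GGAC within the first 50 transcribed bases. The 6 with the highest fold enrichment at that peak are given as 28 bases of the transcribed strand, 5′ to 3′, with GGAC in capitals.
Ube2k: gcgcatgcgcGGACccggcgccattttg
Tia1: ttgttcgcggtgGGACgggcatttttgt
Arglu1: acagctgccatcttagGGACtccgggcc
Cdk19: agggaggaggcgGGACtgtgggtgcctg
Edf1: gagcagctgccagagccgccGGACagac
Suds3: cttccaagcccaccacggGGACagttta
In GRCr8 these windows are chr14:43072187-43072214 (minus strand) for Ube2k, chr4:120410281-120410308 for Tia1, chr16:87455135-87455162 for Arglu1, chr20:45324928-45324955 for Cdk19, chr3:28775216-28775243 for Edf1 and chr12:45137986-45138013 for Suds3, the last 5 on the plus strand. Genes were matched by symbol, and the build of the deposited peaks is not given in the sources used here, so a RefSeq start need not be the start in the files. They were chosen for the motif after the values had been seen. Ube2k, a ubiquitin-conjugating enzyme, had an FPKM of 38.3 and a start peak of 275 bp with a fold enrichment of 65.8. Tia1, an RNA-binding protein of stress granules, had an FPKM of 13.6 and a start peak enriched 60.1-fold. Arglu1, a splicing cofactor, had an FPKM of 20.1 and a start peak of 550 bp enriched 54.7-fold.

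The letters GGAC were found at similar shares in the other genes. They occurred in the first 50 transcribed bases of 22.1% of 764 genes with a peak at the start (95% Wilson interval 19.3 to 25.2), 21% of 2048 genes with peaks elsewhere, 20.6% of 6223 expressed genes without a peak and 20.8% of all 9035 genes matched. On either strand of the whole window of 300 bases, 250 of them before the start, the shares were 91.0%, 91.8% and 92.1%. Antibodies to m6A are known to bind m6Am too, a related mark on a first transcribed adenosine. The first transcribed base in RefSeq was A in 21.6% of the genes with a start peak (18.8 to 24.7) and in 22.0% of the genes without a peak. These are letters in a window, not sites.

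Of the 12541 expressed genes, 3752 carried at least 1 listed peak, which is 29.9% (95% Wilson interval 29.1 to 30.7, counting error only, as are all intervals here). Peaks were concentrated in few genes. No peak was listed for 8789 genes (70.1%), 1 for 2037 (16.2%), 2 for 822 (6.55%), 3 or 4 for 599, 5 to 9 for 259 and 10 or more for 35. The 893 genes with 3 or more peaks, 7.12% of the expressed genes, held 4005 peaks, or 52.1% of those in expressed genes. With strong peaks alone the share of genes with a peak was 11.7%, and with peaks at a p of at most 0.05 it was 22.4%.

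Genes with more peaks were longer, and their peaks were slightly higher. Transcript length is not in the files and was implied from count and FPKM. Its median rose from 1935 bp without a peak to 2295 bp with 1 peak, 2809 bp with 2, 3121 bp with 3 or 4, 3685 bp with 5 to 9 and 4822 bp with 10 or more. The median fold enrichment of the peaks rose along the same classes from 5.54 in genes with 1 peak to 6.57 in genes with 10 or more. The median FPKM rose from 12.5 without a peak to 16.0 with 1 peak, 18.1 with 2 and 20.6 with 3 or 4. Unlike implied length, the median FPKM did not rise further, at 17.0 with 5 to 9 peaks and 19.2 with 10 or more. In all genes with 3 or more peaks it was 19.5. Across the 12541 genes Spearman's rho of the number of peaks was 0.14 with FPKM, 0.20 with implied length and 0.24 with locus length. Median locus length, introns included, rose from 19.3 kb without a peak to 92.2 kb with 10 or more. All these values come from the same 2 libraries.

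The share of genes with a peak was 9.16% in the lowest decile by FPKM, reached 37.2% in the seventh and was 28.3% in the highest. The lowest decile had FPKM values up to 2.48. With strong peaks alone the highest decile stood at 16.2%, above the 11.7% of all expressed genes, so its side of the overall share turned. By implied length it rose from 20% in the shortest decile to 49.1% in the longest (46.4 to 51.9). Crossing quintiles of both, the share was lowest at 10.7% in the second length quintile and lowest FPKM quintile, and highest at 52.7% in the longest quintile at middle FPKM. Within the lowest FPKM quintile, the longest genes reached 22.9%.

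**Figure D1:**
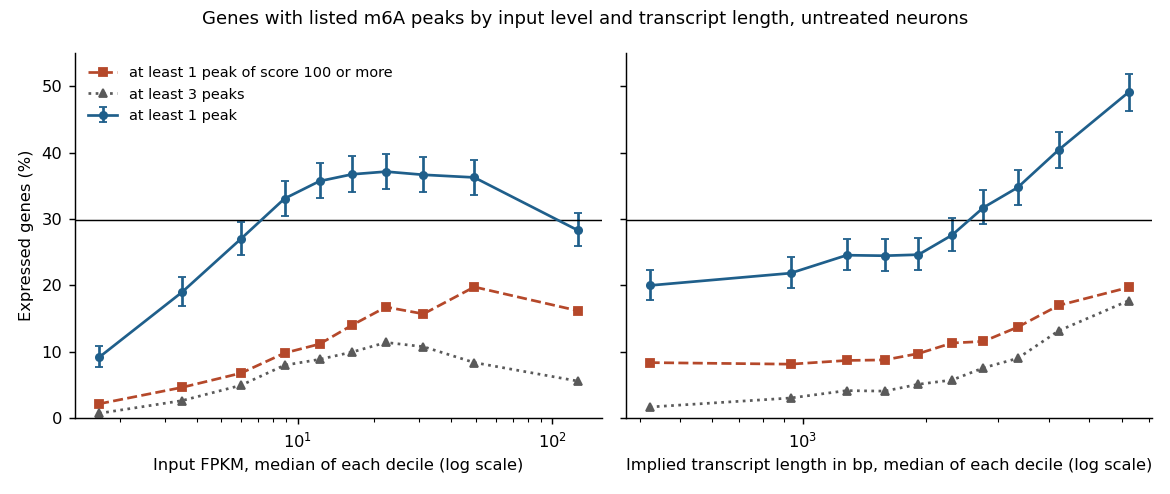
Share of expressed genes with listed peaks in deciles by input FPKM (left) and by implied transcript length (right), each point at the decile's median on a log axis. Bars are 95% Wilson intervals and the horizontal line is the share of all expressed genes, 29.9%; the share falls in the highest FPKM decile, to 28.3%, though its share with a strong peak, 16.2%, is above the 11.7% of all genes, and it rises to 49.1% in the longest genes.

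The most peaks were listed for 3 genes, with 20 each. Tpr, a nuclear pore protein (chr13:72576529-72653723), had peaks enriched 2.93- to 11.7-fold, 10 of them strong. Ktn1, kinectin, a membrane anchor of kinesin (chr15:28414233-28501509), had 13 strong peaks and a highest fold of 21.7. Akap9, a scaffold for protein kinase A at the Golgi and centrosome, had 9 strong peaks. All 3 had middling levels, with FPKM values of 22.5, 21.6 and 16.5. Among the next were Eif4g3, a translation initiation factor, with 16 peaks, and Dst, a giant cytoskeletal linker, with 15.

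The number of peaks and their strength did not go together in every gene. Myh10, a non-muscle myosin heavy chain, had 14 peaks and all were strong. Cep290, a protein of the ciliary transition zone, had 15 peaks and none was strong, with folds from 2.33 to 5.85 at an FPKM of 5.23. Cttn, the actin regulator cortactin, had 13 peaks and none was strong, on an FPKM of only 1.53 and 45.4 counts. The symbol Cttn has 2 rows, and this level is that of the row with most counts, so it may not cover the whole gene. Neighbouring peaks of a gene lay a median of 4555 bp apart along the genome, and 13 of 3780 gaps were at most 500 bp.

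Among strong peaks of expressed genes with a proper symbol, the highest enrichments belonged to other genes than the highest peak numbers. Ehbp1l1, a protein of endosomal transport, had 1 peak of 124 bp (chr1:228000007-228000130) at 307-fold on an FPKM of 5.24. Pcca, a subunit of propionyl-CoA carboxylase, had 1 peak of 68 bp at 187-fold. Bccip followed at 88.6, the histone chaperone Anp32b at 67.1 and the translation initiation factor Eif3j at 64.3. The 12 highest also held Dhx36, a helicase, at 63.6, Snrnp70, a core protein of the U1 spliceosomal particle, at 60.2, and Eif5b at 59.8 with 6 peaks. Robo2, a receptor for the axon guidance cue Slit, reached 58.7 on an FPKM of 9.26.

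The most abundant messages mostly lacked a peak. Of the 100 expressed genes with the highest FPKM on chromosomes with a peak, 16 carried one (16.0%, 10.1 to 24.4), and of the 500 highest 115 did (23.0%). The share of all expressed genes was 29.9%. These lower shares count peaks of any score. With strong peaks alone the highest FPKM decile, at 16.2%, stood above the 11.7% of all expressed genes. Without a peak were Cst3, a protease inhibitor, at an FPKM of 5110, the ferritin chain Fth1 at 3785, the metallothioneins Mt2A and Mt3 at 3760 and 3718, Apoe at 3341, Actb at 1719, Eef1a1 at 1597 and Tuba1a at 1500. The median implied length of the top 100 was 1316 bp. Among the genes with a peak, the highest were Rps29 at 1598 and Clu, a secreted chaperone, at 1473, each with 1 peak. Calm2, a calmodulin gene, had 3 peaks at an FPKM of 849 and a highest fold of 15.9. Ywhae, a 14-3-3 protein, had 3 peaks at 705, and App, the amyloid precursor protein, had 3 at 440. The mitochondrial chromosome held 13 expressed genes, 11 of them matched to the list of mitochondrially encoded transcripts at FPKM values from 1123 to 14279, and no peak was listed on it.

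Markers of other cell types were checked against the label. All 10 neuron markers were expressed, at FPKM values from 11.1 (Slc17a6) to 269 (Slc17a7, the vesicular glutamate transporter of hippocampal principal cells). All 9 astrocyte markers were expressed too, with a median FPKM of 682 against 152 for the neuron markers, so the input held much astrocyte RNA. Gfap, the astrocyte intermediate filament, stood at 2222 and S100b at 2509. All 9 microglia markers were at or above 1, from 1.06 to 44.3, as were 6 of 10 markers of the oligodendrocyte lineage, 4 of 9 of vessels and fibroblasts and 4 of 4 of dividing cells, the last between 1.22 and 6.61. In bulk RNA, the number of cells of a type and the RNA per cell cannot be told apart.

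Peaks were listed for most neuron markers and, with 1 exception, not for astrocyte markers. Of the 10 neuron markers 8 had a peak (exact 95% interval of the share 44.4 to 97.5%) and 5 had a strong one. Of all expressed genes 29.9% had a peak and 11.7% a strong one. Syt1, the calcium sensor of vesicle release, had 4 peaks with a highest fold of 12.2 at an FPKM of 156. Rbfox3, the NeuN splicing factor, had 3 at 27.3, and Map2, the dendritic microtubule protein, and Snap25, a SNARE protein, had 2 each at 193 and 238. Tubb3 at 185 and Gad2 at 50.9 had none. Of the 9 astrocyte markers only Aldh1l1 had peaks, 2 weak ones, and it was the lowest of them with an FPKM of 6.98. The interval of 1 in 9, 0.281 to 48.2%, holds the share of all expressed genes and overlaps that of the neuron markers. No astrocyte marker had a strong peak, which allows up to 33.6%. Gfap, S100b, Aldoc (837), the glutamate transporters Slc1a3 (713) and Slc1a2 (463), the water channel Aqp4 (682), the gap junction protein Gja1 (562) and Sox9 (65.5) had none. Whether cell type, level or gene structure goes with this difference was not tested.

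**Figure D2:**
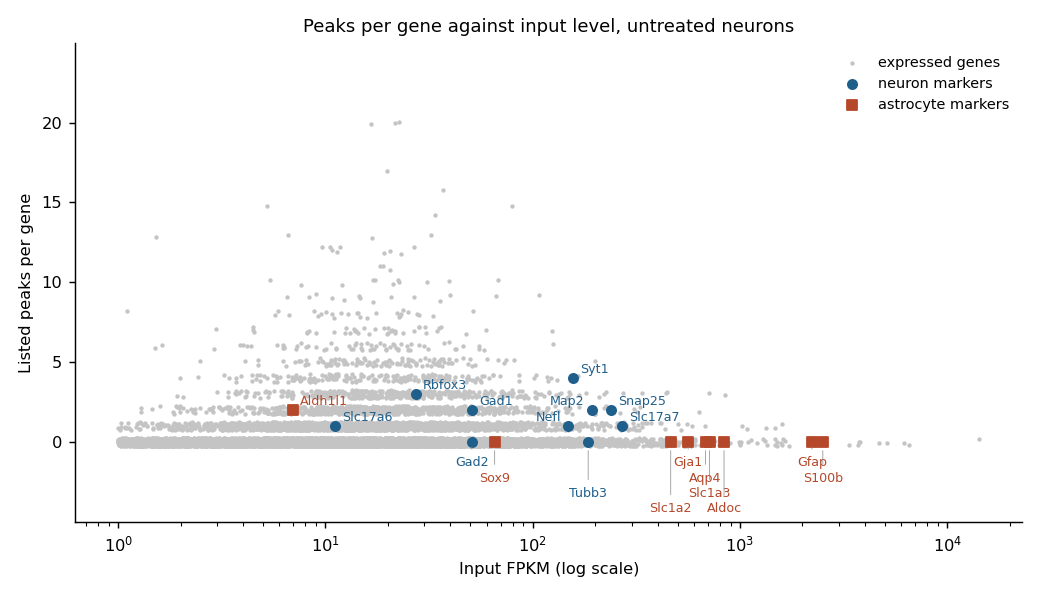
Number of listed peaks per gene against input FPKM (log axis) for 12541 expressed genes, with neuron markers (circles) and astrocyte markers (squares) named; grey points are spread vertically at random within each whole number so that they can be seen. The genes with 20 peaks lie at FPKM values from 16.5 to 22.5, and 8 of 9 astrocyte markers lie at 0 peaks, as do 70.1% of all expressed genes.

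The machinery of m6A carried peaks in some members, at shares not told apart from the 29.9% of all expressed genes. Among 10 expressed writers 3 had a peak (30%, exact 95% interval 6.67 to 65.2). Zc3h13, a scaffold of the writer complex in the nucleus, had 10 peaks with a highest fold of 46.1 at an FPKM of 12.0. Mettl14, the partner that helps the catalytic subunit bind RNA, had 4 peaks, all under a score of 100, with a highest fold of 6.50. Virma, the largest subunit of the complex and listed in the files as RGD1559904, had 1 peak at 24.6-fold. None was listed for the catalytic subunit Mettl3 (FPKM 16.2), Wtap (19.5), Rbm15, Rbm15b, Cbll1, Mettl5 or Zcchc4. Of the erasers, Fto had 1 weak peak (score 8.78) at an FPKM of 44.8 and Alkbh5 none at 33.9. Of 9 readers 4 had peaks (13.7 to 78.8%). Ythdc1, the nuclear YTH reader, had 5 with a highest fold of 22.3. The cytoplasmic readers Ythdf1, Ythdf2 and Ythdf3 had 1 each at folds of 5.76, 4.86 and 7.2. Their scores were 55.2, 3.46 and 105, so only the Ythdf3 peak was strong, and the Ythdf2 peak had a p above 0.05. Hnrnpa2b1 at 165, Prrc2a at 52.8 and Fmr1 at 21.7 had none.

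Synaptic gene lists differed in their share of genes with a peak. Of all expressed genes 29.9% had a peak and 11.7% a strong one. Postsynaptic scaffold genes, which anchor receptors under the synapse, had a peak in 13 of 17 (50.1 to 93.2%): Dlgap2 had 4, Homer1 3 with a highest fold of 18.5, Camk2b 3 at 14.4, and Dlg4, which encodes PSD-95, 1 at 10.5. A strong peak was listed for only 5 of the 17 (29.4%, 10.3 to 56.0). Ionotropic glutamate receptor genes had a peak in 3 of 16 (4.05 to 45.6%), each a single weak one in Grin2a, Grik4 and Grik5, so 0 of 16 had a strong one, which allows up to 20.6% and overlaps the scaffolds' interval. None was listed for Gria2 at an FPKM of 152, Gria1 at 93.1, Grin2b at 64.3 or Grin1 at 60.0. The median implied length was 3602 bp for the scaffolds and 4341 bp for the receptors; the part of length in the difference was not tested. GABA receptor genes and gephyrin had a peak in 2 of 15 (1.66 to 40.5%). That interval and that of the ionotropic glutamate receptors both hold the 29.9% of all expressed genes. Gabbr2, a subunit of the metabotropic GABA-B receptor, had 3 peaks reaching 35.4-fold at 39.3, while its partner Gabbr1 had none at 279.

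Synaptic adhesion genes had a peak in 3 of 19, of which Nrxn2, a neurexin, alone had a strong one at 13.4-fold; Ptprs had none at 121. Presynaptic release genes had a peak in 12 of 21 (34.0 to 78.2%). Pclo, a giant active zone protein, had 4 up to 18.4-fold and Rims1 had 4, whereas Syp at 368, Vamp2 at 246 and Cplx2 at 228 had none. Voltage-gated channel genes, which also encode membrane proteins, had a peak in 13 of 23: the sodium channel Scn8a and the calcium channel Cacna1g had 4 each and Cacna1a 2 up to 18.5-fold. Of the 2 metabotropic glutamate receptors of 6 with a peak, both peaks were weak.

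Among the lists, microtubule-associated proteins and motors had the highest share with a peak, beside 29.9% of all expressed genes. A peak was listed for 15 of 17 (63.6 to 98.5%), with 44 peaks in all. The interval overlaps that of chromatin modifiers (65.5 to 93.2%), and with strong peaks both lists stood at 58.8%. The median implied length of the microtubule list was 5549 bp, and the longest length decile as a whole stood at 49.1%. Kif5c, a kinesin heavy chain, had 9 with a highest fold of 16.8, Kif21a 7 up to 22.6, and Mapt, the tau gene, 4 up to 16.9. Map1b had 1 strong peak, 6481 bp long, at an FPKM of 231, and its relative Map1a none at 88.9. Among neurofilament and growth cone genes 9 of 14 had a peak; Gap43, a growth cone protein, reached 52.4-fold and Nefm, a neurofilament subunit, 27.6-fold, while Dpysl2 at 353 and Stmn2 at 374 had none. The listed axon guidance genes had a peak in 12 of 37, near the share of all genes, with 8 in Robo1 but none in Nrp2 at 73.7 or Epha4 at 66.7. The larger axon guidance pathway deposited with the genes stood higher, at 45 of 111 (40.5%, 31.3 to 50.3). With strong peaks alone it was at 14.4%, against 11.7% of all expressed genes.

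Chromatin modifiers had a peak in 28 of 34 genes (65.5 to 93.2%) and 103 peaks in all, 20 of the genes with a strong one. The remodelling ATPases of the SWI/SNF complex, Smarca2 and Smarca4, had 13 and 9 peaks with highest folds of 19.4 and 23.7. Of the CHD remodellers, Chd2 had 10 and Chd7 had 7 up to 25.8-fold. Kdm5c at 63.8 and Arid2 at 34.8 had none. The median implied length of this list was 6885 bp against 2103 bp for all expressed genes, and the longest length decile as a whole stood at 49.1%. Hippocampal transcription factors had a peak in 9 of 17, with 3 each in Bcl11b and Mef2a and none in Zbtb20 at 97.3 or Tcf4 at 175. Immediate-early genes, which neuronal activity switches on, had one in 3 of 18 (Nr4a3, Homer1 and Egr1), and Bdnf at 24.4, Jun at 45.8 and Arc at 10.6 had none.

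Among housekeeping genes, nuclear genes of the respiratory chain had a peak in 10 of 58 (8.59 to 29.4%), glycolysis genes in 3 of 17, cholesterol synthesis genes in 3 of 22 and cytosolic ribosomal proteins in 16 of 71. Ribosomal protein genes have many near-identical copies in the genome, so their levels and peaks are uncertain. Mitochondrial ribosomal proteins had one in 21 of 53 (26.5 to 54.0%) though their median implied length was only 840 bp; 3 of them had a strong peak. Proteasome genes stood at 10 of 31 (16.7 to 51.4%) and heat shock and ER chaperones at 11 of 23 (26.8 to 69.4%), and both intervals hold the 29.9% of all expressed genes. Notch and Wnt genes had a peak in 10 of 23, but only Tcf7l2, a transcription factor of the Wnt pathway, had a strong one. Ctnnb1 at 321 and Apc at 169 had none. In all, 17 of the 31 lists stood above the share of all expressed genes, but the whole interval lay above it in only 7 and below it in 2. The 7 were the neuron marker, postsynaptic scaffold, presynaptic release, voltage-gated channel, chromatin, microtubule, and neurofilament and growth cone lists. The 2 were the nuclear respiratory chain and the mitochondrially encoded transcripts. Microglia markers had a peak in 2 of 9, oligodendrocyte markers in 1 of 6, proliferation markers in 1 of 4, and vascular and fibroblast markers in 0 of 4, which allows a share of up to 60.2%.

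**Figure D3:**
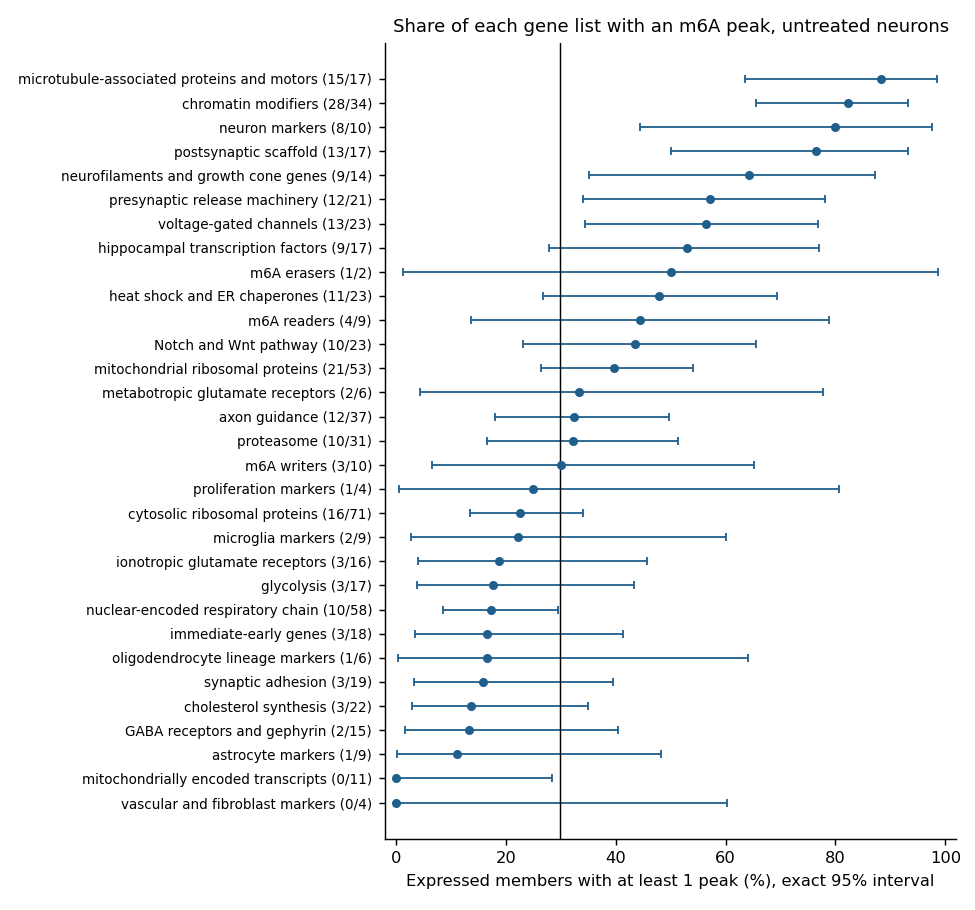
Share of the expressed members of each gene list with at least 1 listed peak, with exact 95% binomial intervals and the numbers in brackets; the vertical line is the 29.9% of all expressed genes. Microtubule genes (15/17) and chromatin modifiers (28/34) lie highest. The ionotropic glutamate receptor, GABA receptor, adhesion and astrocyte lists lie left of the line, but their intervals cross it. Only the nuclear respiratory chain and mitochondrially encoded lists have their whole interval left of it.

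The pathway entries deposited with the genes gave 232 pathways with at least 20 expressed members; genes with any entry stood at 30.1% and those without at 29.8%. The share was at least 10 percentage points above that of all genes in 58 pathways and at least 10 below in 39. Spliceosome was the largest of the highest entries, with a peak in 69 of 120 genes (57.5%, 48.1 to 66.5) at a median implied length of 1692 bp, under that of all genes. Members with many peaks included the splicing factors Ddx46 with 10 up to 29.7-fold, Rbm25 with 8 and Cdc5l with 7.

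The other high entries bear the names of hormone or organ pathways and shared genes. They were vasopressin-regulated water reabsorption (21 of 36), dorso-ventral axis formation (12 of 21), endocrine-regulated calcium reabsorption (19 of 34), adrenergic signalling in cardiomyocytes (59 of 110), insulin secretion (31 of 58), prion diseases, cocaine addiction, renin secretion and GnRH signalling. Of the 197 genes with a peak in the 10 highest entries, 27 were in at least 3 of them. Members of the high entries with many peaks included Plcb1, a phospholipase, with 7, Ryr2 and Itpr2, calcium release channels, with 8 and 6, the tropomyosins Tpm4 and Tpm1 with 6 and 5, and Ncam2, an adhesion molecule, with 6. The G protein gene Gnas had 3 at an FPKM of 446, the level of the row with most counts of its 2 rows. Prkacb, a catalytic subunit of protein kinase A, had 3. Ppp1r1b, which encodes DARPP-32, had 3 at 59.9.

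The lowest pathways included those of membrane lipids, transporters, ligands and small-molecule metabolism. GPI-anchor synthesis had a peak in 0 of 20 genes, which allows a share of up to 16.8%, Pigk among them at an FPKM of 77.5. ABC transporters had one in 1 of 30 although their median implied length was 4116 bp; Abcd3 at 68.1 and Abca1 at 50.1 had none. Malaria, an entry of adhesion and cytokine genes, had 2 of 28, fructose and mannose metabolism 2 of 26, starch and sucrose metabolism 2 of 22, terpenoid backbone synthesis 2 of 21, and cytokine-receptor interaction 7 of 80. Hmgcs1, which starts sterol synthesis, had none at 239.

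By cellular component, genes for membrane proteins stood under other genes of like transcript length. Genes annotated as integral to a membrane had a peak in 450 of 2434 (18.5%, 17.0 to 20.1), and other annotated genes in 2853 of 8101 (35.2%, 34.2 to 36.3). Median FPKM values were 15.2 and 15.1. In each quintile by implied length the membrane group was lower, from 14.2% against 25.1% in the shortest to 29.1% against 50.9% in the longest. Genes annotated to the nucleus or nucleoplasm had a peak in 39.2% of 3936, and in 54.9% of those in the longest quintile. Genes of extracellular proteins stood at 22.8% of 705, against 32.0% of 9830 other annotated genes. Single components with at least 50 genes were set beside the 29.9% of all expressed genes. The spliceosomal complex (40 of 66), stress fibres (29 of 51), nuclear specks (65 of 123) and the postsynaptic density (112 of 224) stood above it.

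Compact genes, whose transcript makes up much of the locus, carried few peaks. By locus length alone, the share of genes with a peak was 13.1% in the shortest decile and 41.5% in the longest. At a given implied length a compact gene has a short locus, so compactness and locus length were not separated. Where implied length was under 2% of the locus, 33.8% of 1528 genes had a peak; where it was 20 to 50%, 18.0% of 2178 did, and at 50% or more, 11.8% of 956 (9.92 to 14.0). Among genes with an implied length over 3000 bp the fall was steeper, from 49.4% of 703 genes at 2 to 5% of the locus to 12.4% of 177 at 50% or more (8.35 to 18.1), with median FPKM values of 15.5 and 11.2. Among these long compact genes Eef2, the translation elongation factor, had no peak at an FPKM of 436, nor had Ccng1 at 314, Atp1b2, a sodium pump subunit, at 208, Map1a at 88.9 with an implied length of 11275 bp, or Gprasp1 at 80.8. Srrm2, a nuclear speck protein, had 2 peaks at 97.3. The groupings by cellular component and by compactness were chosen after values had been seen.

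**Figure D4:**
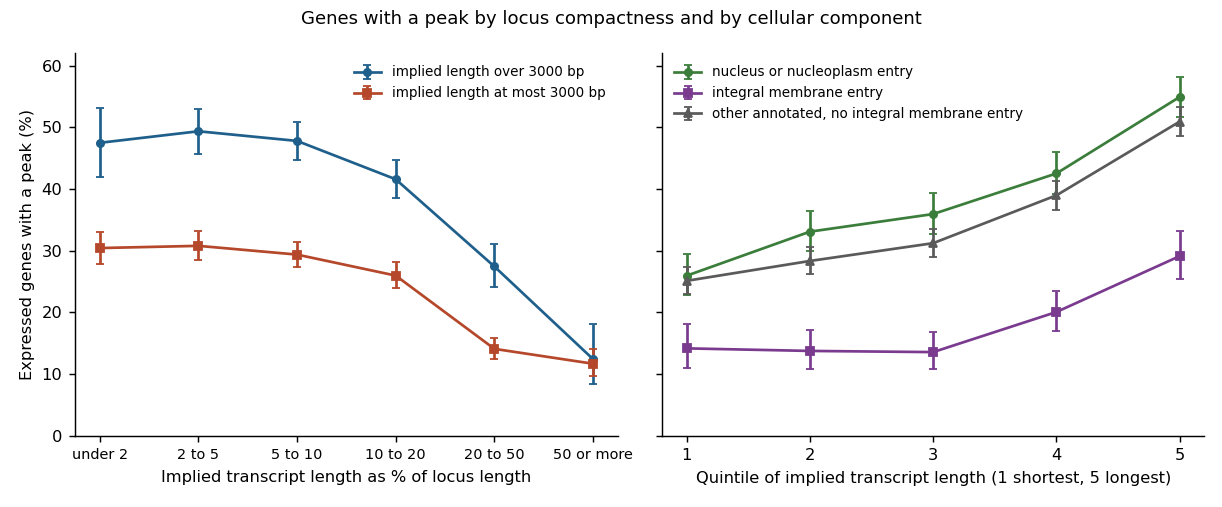
Share of expressed genes with a peak, by implied transcript length as a percentage of locus length in long and shorter transcripts (left) and by cellular component in quintiles of implied length (right); bars are 95% Wilson intervals. Long transcripts fall from 49.4% to 12.4% as the locus becomes compact, and integral membrane genes lie under other annotated genes in each quintile.

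Along the locus, introns included, the first and the last stretch held more peaks than those between, but not in every class of gene. Positions were taken for 7458 peaks that overlapped the listed locus, and a midpoint outside it was set to the nearer end. Of these midpoints 27.6% were in the first 20% of the locus and 23.0% in the last 20%. The stretches between held 13.9%, 16.2% and 19.3%. An edge coincided to the base with the listed gene start in 1030 peaks (13.8%) and with the gene end in 191 (2.56%). Start peaks had a median fold of 6.43 and a median length of 196.5 bp, against 5.76 and 154 bp for peaks away from the start. In genes with a single peak 26.5% of peaks began at the start and 40.7% lay in the first 20% of the locus; in genes with 3 or more peaks the values were 6.59% and 19.2%, the latter under an even spread. In loci of 10 to 50 kb the last 20% held 17.7%. Strong peaks were placed like the others, with 27.2% and 27.8% in the first 20% and 22.4% and 23.3% in the last 20%.

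**Figure D5:**
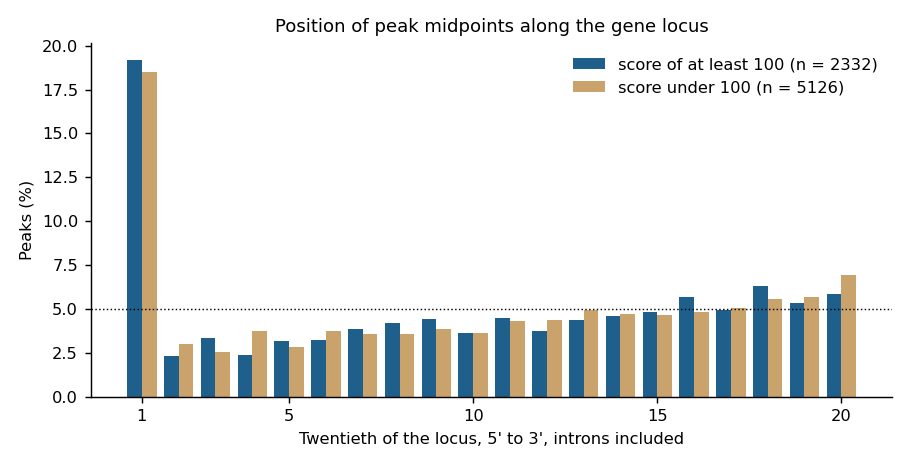
Percentage of peak midpoints in each twentieth of the locus, from the 5′ to the 3′ end with introns included, for 2332 peaks with a score of at least 100 and 5126 with a lower score; the dotted line is an even spread. The first twentieth stands out in both classes, with 19.2% of the strong peaks.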

How the data were processed

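Total RNA of untreated primary neurons was sequenced as input and after pull-down with an m6A antibody kit; the library kit keeps strand, per the labels' protocols. Tools named in the submitters' processing notes are cutadapt 1.9.3, HISAT2 2.0.4 and STAR, without their roles. Quantifier, annotation, peak caller version and genome build: not given in the sources used here. The deposited input table holds, per the file headers, an FPKM value. Beside it the authors deposited estimated counts, which are not whole numbers and appear scaled by 1 factor. The deposited peak list holds for every peak, per the file headers, a score (-10 times log10 of its p-value), a fold enrichment (a ratio of IP to input), a length and a percent FDR, always 100. Peak names show MACS, and each peak is assigned to a gene. Peaks are numbered up to 13908, so the 8192 listed are part of those called. Starts were taken as counted from 0 and are printed 1 higher. Of all scores, 159 were exactly 3100 and 7 were above it.

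Peaks were joined to genes by symbol, which found 3944 of 4050 peak genes; where a symbol had several rows (161 expressed symbols), the row with most counts was used. Of 22714 rows, 49 had no symbol. Implied length is the count divided by FPKM and by the total count, in bp. It is an effective length that understates short transcripts, and it exceeded the locus length in 145 expressed genes. Strong means a score of at least 100, and many means at least 3 peaks. With 1 library per group no test was run. Shares have Wilson or exact 95% binomial intervals over genes. These treat genes as independent and cover counting error only, not error between replicates. Reads carry no molecular identifiers. Of 662 listed symbols, 639 matched by symbol, 5 by letter case and 4 through RefSeq.

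Members and gene lists were chosen with earlier results of these data known. Genes named in the text come from a fixed rule: those with most peaks, with the highest fold enrichment, with the highest FPKM with or without a peak, members of the m6A machinery, up to 4 members with peaks and 3 without of each list, and the first and last pathways; not each gene it takes is described. A few further genes of the lists, and Arglu1, Cdk19, Edf1, Suds3 and the long compact genes, were named after their values were seen. The share calculations were tested on simulated data. Tables were made with Python 3.11.15, pandas 2.3.3, numpy 2.4.6 and scipy 1.17.1.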

Additional observations from a re-analysis of the deposited data

How the results depend on the processing

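No paired analysis was possible because each group is 1 library and no test was run. The share of genes with at least 1 peak, 29.9%, was 28.6% at an FPKM of at least 0.5, 34.1% at 5 or more and 17.7% with no filter. It was 22.4% with peaks at a p of at most 0.05, 11.7% with scores of at least 100 and 32.1% when peaks were joined by overlap with the locus. The share with at least 3 peaks, 7.12%, was 8.54% at an FPKM of 5 or more, 4.11% with no filter, 4.62% at that p, 1.67% at that score, 7.95% by overlap and 2.34% where many meant 5. The highest FPKM quintile exceeded the lowest by 18.2 percentage points, but only by 1.43 (-1.43 to 4.29) at an FPKM of 5 or more, by 14.6 with strong peaks and by 26.8 with quintiles by count. The median fold was 0.67 higher in genes with at least 3 peaks than in those with 1, and 1.15 higher among strong peaks. With strong peaks 35 pathways were at least 10 points above and 13 below. The share of all genes was then 11.7%, which leaves little room for a share 10 points lower, so the 13 is bounded by that floor. The last and first 10% of the locus held 12.2% and 21.5% of peaks. The causes were not tested. Lists that changed side of the share of all genes were m6A writers, microglia markers and proteasome at an FPKM of 5 or more, erasers, axon guidance and Notch and Wnt at a p of at most 0.05, and erasers, metabotropic receptors, immediate-early genes, Notch and Wnt and mitochondrial ribosomal proteins with strong peaks. The main limits are 1 library per group, an unknown IP depth and peak threshold, and a high share of peaks with weak scores.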

Other observations

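Peaks were also listed for genes that the input table puts at little or no RNA. Of the peak genes, 192 had an FPKM under 1, 74 of them a count of 0, and they held 295 peaks; 80 had a strong peak. Pdcd5, a gene linked to programmed cell death, had 10 peaks with a highest fold of 21.9 at an FPKM of 0. Arid4b, a chromatin protein, had 8 peaks at 0.288, and Anp32a, a histone chaperone, had 6 peaks up to 32.3-fold at 0.178. Map9, a microtubule protein, had 4 up to 22.8-fold at 3.7e-05. A further 106 peak genes with 211 peaks had no row under their symbol, of which 64 were found by Ensembl identifier, and joining those too gave 3810 expressed genes with a peak. What sets the listed input level of these genes against their peaks was not tested.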
